A study of Mus musculus with 6 samples.

Results

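The 10 genes described here are Trp53, which encodes the transcription factor p53, and 9 genes of its feedback and growth arrest program: Mdm2, Mdm4, Ppm1d, Cdkn1a, Ccng1, Btg2, Phlda3, Zmat3 and Sesn1. They were chosen by name and, like the gene lists used below, with earlier results of these data known. Each was found by NCBI gene identifier among the 17254 genes with reads in any library. All 10 also passed the filter on low values, a mean of at least 1 FPKM (fragments scaled by transcript length and library total) over the libraries, which left 11717 genes to be tested. None passed through 1 group alone, since the lowest value of any of them in any library was 3.67 FPKM, for Btg2 in a control library.

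The study asked how a change of the redox state alters mouse neural stem/progenitor cells (NSPCs), and RNA was sequenced from 6 libraries of these cells after 48 h. Both control libraries came from mock-treated NSPCs. The PQ libraries came from NSPCs treated with paraquat (PQ), which cycles with oxygen in the cell and produces superoxide. Its dose was 5 µM by the label of PQ 1 and by the study's RNA-seq methods, and the label of PQ 2 gives none. The NAC libraries came from NSPCs treated with 5 mM N-acetylcysteine (NAC), a thiol antioxidant, a dose taken from the same methods. Each group had 2 libraries, and all were grown in N2 medium with EGF and bFGF. The labels of control 1 and PQ 1 give the strain C57BL/6 and a genotype spelled Ink/Ark knockout, and those of the other 4 libraries give no genotype. By the study's methods the cells were an immortalized Ink/Arf-/- culture from neonates, a mixed population of stem cells, neuronal precursors and oligodendroglial progenitors. For control 1 and PQ 1 the labels name a NucleoSpin extraction and an Illumina library protocol, and for the other 4 libraries TRIZOL and a BGISEQ-500 sequencer, so that both NAC libraries share their protocol with control 2 and PQ 2 only. Expected counts per library summed to 9849392 and 10040827 in control, 10388731 and 9680436 in PQ, and 10698241 and 9907726 in NAC. Nothing in the labels says that the libraries of a group came from separate cultures. The p-values thus judge differences against the spread between these libraries, which may be technical. In control and in PQ the 2 libraries also differ in protocol, and in NAC they do not.

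p53 is held low in unstressed cells by MDM2, a ubiquitin ligase that marks it for degradation, and by the related protein MDM4, which covers its activation domain. DNA damage and oxidative stress activate kinases that release p53 from this control, and p53 then raises the transcription of genes for cell cycle arrest, repair and death, among them the genes of its own inhibitors, which closes a negative feedback loop. In neural stem cells p53 is known as a brake on self-renewal and proliferation, and Arf, a product of the Cdkn2a gene, is an inhibitor of MDM2.

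The p53 protein binds a response element of 2 adjacent half-sites, each with a core of 4 letters that begins with C and ends with G. The mm9 genome was scanned for the p53 response element consensus, with 0 bases between the half-sites, within 5 kb of each gene's annotated start. The scan covered both strands, since the consensus is its own reverse complement. The C and G of each core had to be present. Elements with bases between the half-sites, or with a changed C or G, were therefore not found. Of the 10 genes, 3 held a match with at most 2 mismatches, beside 9.87% of 22238 protein-coding genes. At most 1 mismatch was found in 3 of the 10 genes and 1.72% of all genes, 0 mismatches in 1 of the 10 and 0.175%, and at most 3 mismatches in 7 of the 10 and 39.4%. The matches of Cdkn1a, Ccng1 and Zmat3 are shown on the strand of the gene, with the core 4 letters of each half-site in capitals. The 3 other genes that were higher in PQ held no match with at most 2 mismatches. Of these Mdm2 held 1 with 3 mismatches and Btg2 and Phlda3 none, while Trp53, Mdm4 and Sesn1, which did not pass in PQ against control, held matches with 3. Whether matches and calls are related was not tested.
Cdkn1a upstream: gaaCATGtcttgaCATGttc
Ccng1 upstream: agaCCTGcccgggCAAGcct
Ccng1 intron: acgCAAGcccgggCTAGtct
Zmat3 upstream: gagCAAGtctgggCTTGtta
Zmat3 intron: aaaCAAGcccaggCATGtct
The Cdkn1a match lies at chr17:29227873-29227892 on the plus strand, outside the gene, with its first base 51 bases before the start, and has 1 mismatch. For every gene the start is the outer end of its whole annotation, and starts of single transcripts further inside were not examined. The upstream match of Ccng1 lies at chr11:40568964-40568983 and its intronic match at chr11:40568438-40568457, both on the minus strand with 1 mismatch. For Zmat3, also on the minus strand, the upstream match at chr3:32269073-32269092 has 1 mismatch and the intronic match at chr3:32263253-32263272 has 0. A match describes letters of the genome, and binding of p53 was not measured.

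**Figure D1:**
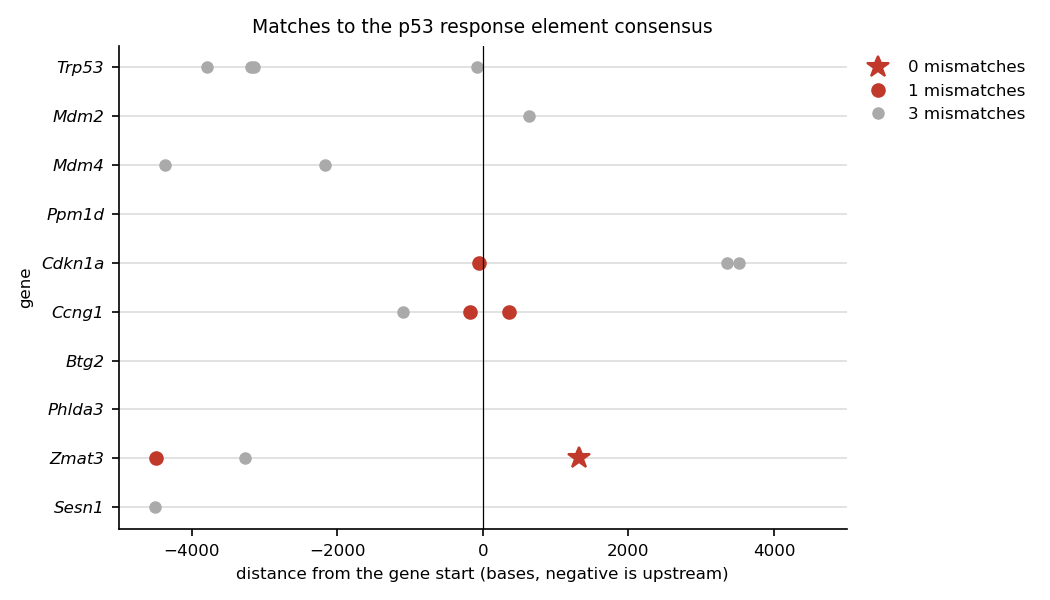
Matches to the p53 response element consensus within 5 kb of the annotated start of each of the 10 genes (mm9), plotted by distance from the start in bases, with symbols for the number of mismatches. Matches with at most 1 mismatch are seen for Cdkn1a, Ccng1 and Zmat3, and the match of Zmat3 inside the gene has 0 mismatches.

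Before the 10 genes are compared, the genotype and the cell types named for these libraries were examined. Cdkn2a, which encodes p16Ink4a and p19Arf, had expected counts of 137 and 162 in control, 120 and 130 after PQ, and 130 and 131 after NAC. Its neighbour Cdkn2b, which encodes p15Ink4b, had 146 and 179 in control, 166 and 179 in PQ, and 120 and 145 in NAC. Both genes thus had reads in all 6 libraries, and neither differed in any comparison by edgeR, with adjusted p from 0.23 for Cdkn2a in PQ against control to 0.99 for Cdkn2a in PQ against NAC, and 0.88, 0.13 and 0.059 for Cdkn2b. A count per gene does not show which exons gave the reads, and the deleted exons are not given in the sources used here, so these counts do not check the genotype.

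Markers of neural stem and progenitor cells were high, with a summed FPKM over the list of 10 genes of 3396 and 3456 in control, 3730 and 3790 in PQ, and 2676 and 2598 in NAC. Vim was the most abundant of them in every library and was lower in NAC by -0.75 (edgeR, adjusted p = 3.8e-06), and without it the sums were 1225 and 1133 in control, 1182 and 1142 in PQ, and 1314 and 1209 in NAC, so the lower sum in NAC was that of Vim. Prom1 was at 0 in control 2 and both NAC libraries. By edgeR 1 of the 9 tested was higher and 3 were lower in NAC than in control (3 lower with DESeq2 and 1 with limma). In PQ 1 was higher and 2 were lower than in control (Nes 0.34, Sox2 -0.35 and Slc1a3 -0.48 on the log2 scale). The calls of Nes and Sox2 were lost without PQ 1 (0.34 with an adjusted p of 0.081, and -0.34 with 0.12) and without PQ 2 (0.35 with 0.052, and -0.37 with 0.071), and that of Sox2 also without control 1 (-0.23 with 0.15). The 8 oligodendroglial markers summed to 652 and 753 FPKM in control, 768 and 667 in PQ, and 816 and 926 in NAC, led by Olig1 or Olig2, with Sox10 at 0 in 4 libraries. Of 4 tested, 0 differed in PQ (1 lower at an unadjusted p under 0.05, and 0 with DESeq2 or limma) and 3 were higher in NAC (2 with DESeq2 and 1 with limma). The 8 neuronal precursor markers, led by Map2, summed to 70.2 and 66.0 FPKM in control, 47.3 and 50.4 in PQ, and 102 and 91.7 in NAC, with Rbfox3 absent from every library. Without Map2 the sums were 34.5 and 31.8 in control, 14.7 and 16.4 in PQ, and 36.8 and 33.6 in NAC. By edgeR 1 of the 3 tested was lower in PQ, and in NAC Map2 was higher by a log2 fold change of 0.77. The other 2 did not pass in NAC, 1 of them negative (Dlx2 at -0.61). Tubb3, which was not tested, had 40.95 and 22.88 expected counts in control, 13 and 8 in PQ, and 6 and 7.67 in NAC. The 6 astrocyte markers summed to 175 and 175 FPKM in control, 203 and 218 in PQ, and 204 and 203 in NAC. Of them 2 were higher in PQ (Aldh1l1 by 1.17 and Gja1 by 0.31), and 3 were higher and 1 lower in NAC. Aldh1l1 was at 0.93 without PQ 1 (adjusted p = 0.091), and Gja1 at 0.28 without control 2 (0.076), 0.38 without PQ 1 (0.055) and 0.24 without PQ 2 (0.19). Markers of microglia and macrophages summed to at most 4.59 FPKM in any library, led by P2ry12, those of endothelium to at most 0.62, led by Pecam1, and those of fibroblasts and mural cells to at most 5.95, led by Col3a1. The 1 microglial gene tested, P2ry12, did not pass in PQ and was higher in NAC by 1.18 (edgeR, adjusted p = 0.0033, but 0.86 with 0.09 without NAC 1). In PQ the 1 fibroblast gene tested, Col3a1, was lower by -0.90, and no endothelial gene was tested. The other fibroblast and mural markers went the other way as a sum, though not each of them. Rgs5 did not rise, at 0.17 and 0.22 FPKM in control, 0.16 and 0.0 in PQ, and 0.1 and 0.06 in NAC. Without Col3a1 the sum of the list was higher in each PQ library, and in each NAC library, than in either control library. That sum was low throughout, at most 3.19 FPKM (PQ 1), and these other markers were not tested. The part of these marker changes in the results on p53 genes was not tested, and in bulk RNA fewer cells of a type and less RNA per cell cannot be told apart.

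Trp53 RNA itself was nearly level between control and PQ. It was measured at 122 and 149 CPM (counts scaled by library total, with TMM factors) in control, 148 and 142 in PQ, and 169 and 170.2 in NAC. Both PQ libraries lay between the control libraries, while both NAC libraries lay above the other 4. Its log2 fold change was 0.09 in PQ against control (edgeR, standard error [SE] 0.10, 95% interval from -0.12 to 0.31, adjusted p = 0.58). Against control NAC gave 0.32 (edgeR, SE 0.10, adjusted p = 0.034), higher in 2 of 2 libraries, and in PQ against NAC -0.23 (edgeR, adjusted p = 0.099). The call in NAC was weak, since it was kept in 6 of 13 alternative settings, with a log2 fold change of 0.19 without control 1 (adjusted p = 0.28), 0.33 without NAC 1 (0.12), 0.32 without NAC 2 (0.13) and 0.32 without PQ 1 or without PQ 2 (0.053 for each). It was also lost with the protocol as a factor (0.27, adjusted p = 0.15), where both NAC libraries share their protocol with control 2 only, and with only the 4 libraries compared (0.33, adjusted p = 0.051). The difference between PQ and NAC passed in 3 of 13, without control 1 or control 2 and with only the 4 libraries compared (-0.23, adjusted p = 0.047 for each).

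Of the inhibitors of p53, only Mdm2 differed between PQ and control. Mdm2, the ubiquitin ligase and a p53 target, was measured at 143 and 123 CPM in control, 212 and 208 in PQ, and 98.8 and 95.9 in NAC. The groups did not overlap: PQ was the highest, control intermediate and NAC the lowest. The log2 fold change was 0.66 in PQ (edgeR, SE 0.10, adjusted p = 1.4e-04) and -0.45 in NAC (edgeR, SE 0.10, adjusted p = 0.0035), each against control and shared by 2 of 2 libraries. Between PQ and NAC, Mdm2 differed 2.15-fold (edgeR, log2 fold change 1.11, adjusted p = 1.5e-07). Part of its reads were shared with other genes, since its expected counts are not whole, which leaves its level somewhat uncertain.

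Mdm4, which binds and masks p53, was measured at 65.5 and 61.9 CPM in control, 68.7 and 89.1 in PQ, and 69.6 and 60.1 in NAC. PQ 2 stood above all other libraries, and PQ 1 lay above both control libraries and below NAC 1. The log2 fold change in PQ was 0.31 (edgeR, SE 0.12, 95% interval from 0.05 to 0.56, adjusted p = 0.086), and within protocols it was 0.07 for PQ 1 over control 1 and 0.52 for PQ 2 over control 2. It passed the threshold without PQ 1 (0.49, edgeR, adjusted p = 0.031) and with no filter on low values (0.30, adjusted p = 0.045), and did not in the other 11 alternative settings. Between NAC and control the log2 fold change was 0.03 (edgeR, adjusted p = 0.9), and in PQ against NAC 0.28 (edgeR, adjusted p = 0.087, and 0.46 with an adjusted p of 0.019 without PQ 1). There it also passed without control 1 or control 2 (0.28, adjusted p = 0.049 for each) and with only the 4 libraries compared (0.28, adjusted p = 0.05 after rounding), 4 of 13 alternative settings in all.

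Ppm1d, the gene of the phosphatase WIP1 that removes activating phosphates from p53 and its kinases, was measured at 32.5 and 34.1 CPM in control, 33.9 and 33.3 in PQ, and 43.0 and 38.5 in NAC. The PQ libraries lay within the control values, and both NAC libraries lay above the other 4. No comparison passed the test: the log2 fold change was 0.01 in PQ (edgeR, 95% interval from -0.23 to 0.26, adjusted p = 0.95), 0.29 in NAC (edgeR, adjusted p = 0.088) and -0.28 in PQ against NAC (edgeR, adjusted p = 0.075).

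Ccng1 encodes cyclin G1, which recruits a phosphatase to MDM2 and is a p53 target with both feedback and arrest roles. It was measured at 323 and 279.6 CPM in control, 754 and 759.8 in PQ, and 229.5 and 196 in NAC. Both PQ libraries were far above all others, and both NAC libraries lay below control. Ccng1 was 2.51-fold higher in PQ than in control (edgeR, log2 fold change 1.33, SE 0.10, adjusted p = 2.2e-07), lower in NAC than in control (edgeR, log2 fold change -0.50, adjusted p = 0.0015), and 3.56-fold higher in PQ than in NAC (edgeR, log2 fold change 1.83, adjusted p = 7.3e-10). Of its matches to the response element, shown above, the intronic one begins 356 bases after the start and the upstream one 170 bases before it.

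Cdkn1a, the gene of the cyclin-dependent kinase inhibitor p21 and the main arrest target of p53, had the highest FPKM of the 10 genes in every group. It was measured at 474 and 468 CPM in control, 1090 and 1035 in PQ, and 223 and 255 in NAC. The 3 groups were fully separate, with PQ on top and NAC at the bottom, and the gap between groups was larger than the gap within any of them. The mean of 471 ± 4.8 CPM in control stood beside 1063 ± 38.3 in PQ and 239 ± 22.7 in NAC (SD, n = 2 each). The fold change between PQ and NAC was 4.44 (edgeR, log2 fold change 2.15, SE 0.10, 95% interval from 1.95 to 2.35, adjusted p = 1.1e-10). Within protocols the log2 difference was 1.20 for PQ 1 over control 1 and 1.15 for PQ 2 over control 2, and -1.07 and -0.87 for the NAC libraries against control 2.

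Btg2, an antiproliferative gene of the BTG/TOB family that binds a deadenylase complex, had the lowest FPKM of the 10 genes in control. It was measured at 12.6 and 11.5 CPM in control, 24.8 and 23.1 in PQ, and 12.1 and 14.2 in NAC. Only the PQ libraries stood apart, and control and NAC overlapped. The log2 fold change was 0.99 in PQ against control (edgeR, SE 0.15, adjusted p = 2.1e-04), 0.12 in NAC against control (edgeR, 95% interval from -0.22 to 0.46, adjusted p = 0.66) and 0.87 in PQ against NAC (edgeR, adjusted p = 2.1e-04). These rest on 114 to 260 expected counts per library, with a counting error of up to 9.37% of the count.

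Phlda3, a pleckstrin homology protein that competes with AKT for membrane lipids, was measured at 37.6 and 40.8 CPM in control, 67.1 and 60.7 in PQ, and 25.5 and 32.7 in NAC. PQ was above and NAC below control without overlap. The log2 fold change was 0.71 in PQ (edgeR, SE 0.12, adjusted p = 5.4e-04) and -0.43 in NAC (edgeR, SE 0.13, adjusted p = 0.025), each against control. The fall in NAC was kept in 7 of 13 alternative settings and was lost without control 2 (-0.37, adjusted p = 0.086), without NAC 1 (-0.26, adjusted p = 0.31), with the protocol as a factor (-0.42, adjusted p = 0.064), with DESeq2 (-0.43, adjusted p = 0.05 after rounding) and with limma on both FPKM scales (-0.37 with 0.083 and -0.39 with 0.081). PQ against NAC gave a log2 fold change of 1.14 (edgeR, adjusted p = 1.7e-06).

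Zmat3, a zinc finger RNA-binding protein also known as Wig-1, was measured at 79.7 and 93.2 CPM in control, 140.0 and 136 in PQ, and 71.7 and 73.9 in NAC. The PQ libraries were the highest and the NAC libraries the lowest, with control between them. The log2 fold change was 0.67 in PQ against control (edgeR, SE 0.10, adjusted p = 1.4e-04), -0.25 in NAC against control (edgeR, adjusted p = 0.1) and 0.92 in PQ against NAC (edgeR, adjusted p = 1.6e-06). Without control 1 the value in NAC was -0.36 and passed the threshold (edgeR, adjusted p = 0.032). Zmat3 had fractional counts like Mdm2, so its level shares that uncertainty.

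Sesn1, the gene of sestrin 1, which restrains mTORC1 and supports the reduction of peroxiredoxins, had the opposite order of groups. It was measured at 26.2 and 30.4 CPM in control, 22.7 and 26.4 in PQ, and 36.9 and 35.4 in NAC. The NAC libraries were above all others, while PQ and control overlapped. The log2 fold change was -0.21 in PQ against control (edgeR, 95% interval from -0.49 to 0.07, adjusted p = 0.31), 0.35 in NAC against control (edgeR, adjusted p = 0.065, and 0.46 with an adjusted p of 0.035 without control 2) and -0.56 in PQ against NAC (edgeR, SE 0.13, adjusted p = 0.0029). The last call was kept in 12 of 13 alternative settings and lost without PQ 1 (edgeR, -0.45, adjusted p = 0.063).

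**Figure D2:**
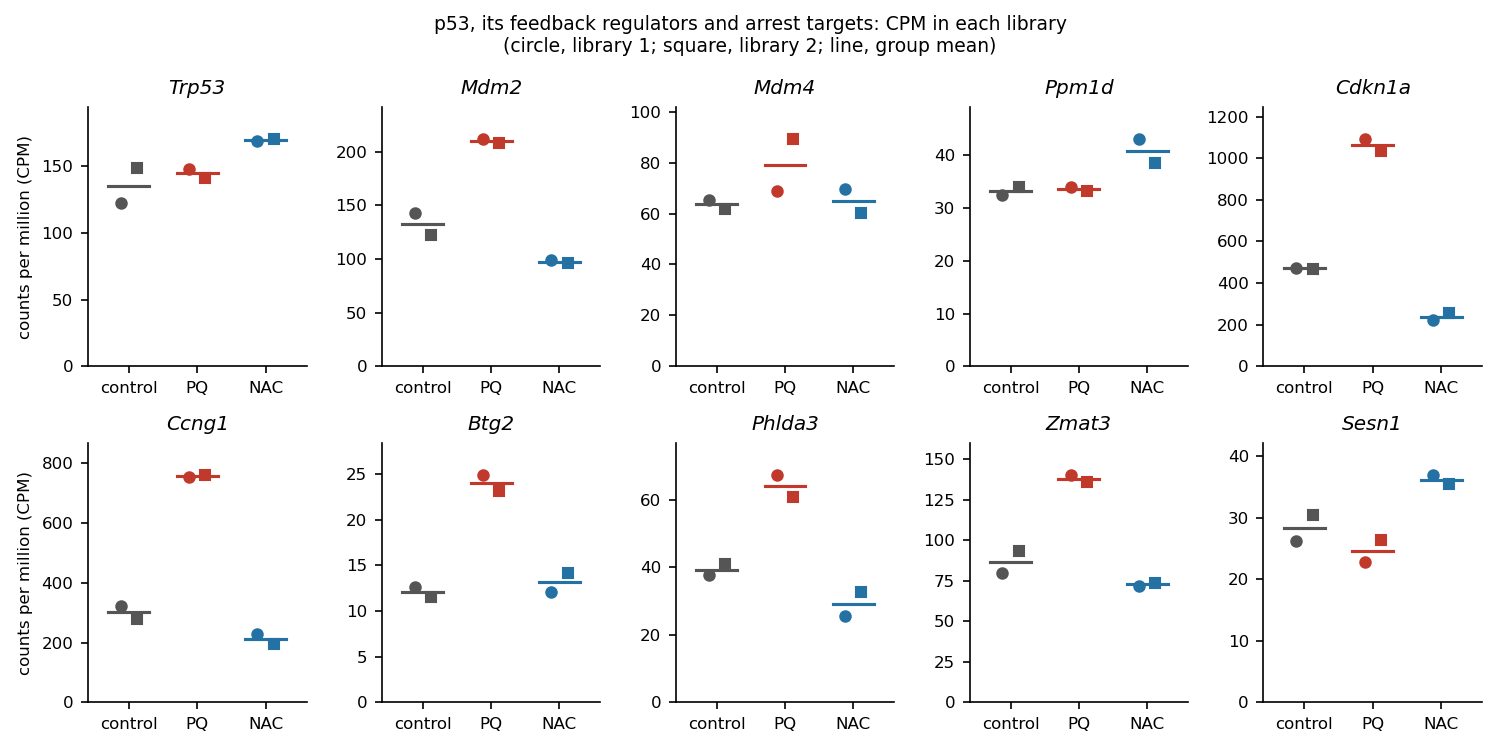
CPM of the 10 genes in each of the 6 libraries, with a panel per gene and an axis from 0. Circles are library 1 and squares library 2 of a group, and lines are group means. Cdkn1a, Ccng1, Mdm2, Phlda3 and Zmat3 are highest in PQ and lowest in NAC, Btg2 is high in PQ only, and Sesn1 is highest in NAC.

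Counted over the list, 6 of the 10 genes were higher in PQ than in control at the threshold of 0.05 (Ccng1, Cdkn1a, Btg2, Phlda3, Zmat3 and Mdm2), 0 were lower, and 4 did not pass the test (Trp53, Mdm4, Ppm1d and Sesn1). Among all 11717 genes tested, 19.2% differed between PQ and control by edgeR, 9.76% higher and 9.45% lower. The count of 0 lower genes was also 0 at an unadjusted p under 0.05, with DESeq2 and with limma. In NAC, compared with control, 1 gene was higher (Trp53, but 2 without control 2 and 0 without any other single library), 4 were lower (Cdkn1a, Ccng1, Mdm2 and Phlda3) and 5 did not pass, against 18.7% of all genes, 9.01% higher and 9.64% lower. In PQ against NAC 6 were higher, the same 6 genes as in PQ against control, 1 was lower (Sesn1, but 0 without PQ 1 and 2 without control 1 or control 2) and 3 did not pass, against 31.6% of all genes, 16.0% higher and 15.7% lower. The median log2 fold change of the 10 genes was 0.67 in PQ against control, -0.11 in NAC against control and 0.90 in PQ against NAC, and the median of all genes tested lay within 0.002 of 0 in each. The comparisons share libraries, so their values are given side by side and were not related to each other by a test. The number of genes called among all tested leaned on single libraries: it fell from 2250 to 866 in PQ against control without PQ 1, from 2186 to 1286 in NAC against control without NAC 1 and 1427 without NAC 2, and from 3708 to 2343 in PQ against NAC without PQ 1 and 2407 without NAC 1. The calls of the 6 genes higher in PQ were each kept in 13 of 13 alternative settings, against control and against NAC alike.

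**Figure D3:**
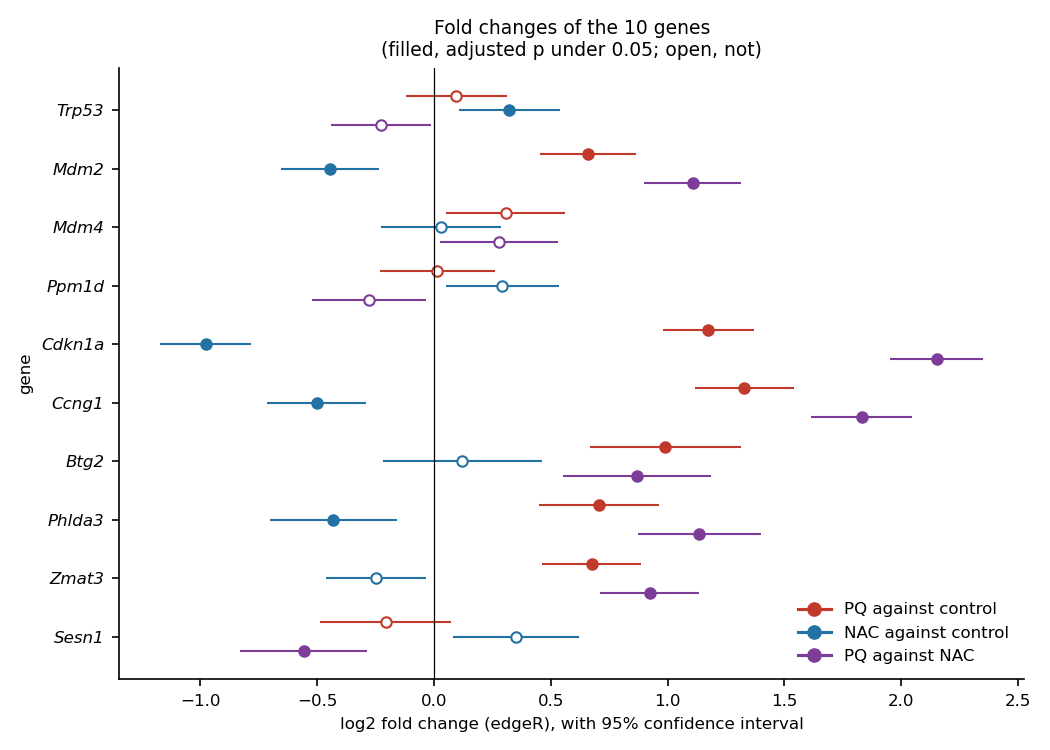
Log2 fold changes of the 10 genes in PQ against control, NAC against control and PQ against NAC, with 95% confidence intervals from edgeR; filled points passed the threshold of 0.05 for the adjusted p. Cdkn1a and Ccng1 lie farthest from 0 in PQ against NAC, at 2.15 and 1.83.

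Within the labelled protocols, where each side holds 1 library and differences are given without a test, the PQ over control difference kept its sign for the 6 genes. On the log2 CPM scale the difference was 1.22 for Ccng1 in the NucleoSpin pair and 1.44 in the TRIZOL pair. It was 0.57 and 0.76 for Mdm2, 0.97 and 0.99 for Btg2, 0.81 and 0.55 for Zmat3, and 0.83 and 0.57 for Phlda3, in the same order. For Sesn1 both differences were negative, at -0.21 and -0.20, whereas for Trp53 they differed in sign, at 0.27 and -0.07, as they did for Ppm1d, at 0.06 and -0.03. The NAC libraries can be set beside control 2 only: Mdm2 was -0.31 and -0.36 there, Ccng1 -0.28 and -0.51, Phlda3 -0.67 and -0.32, and Trp53 0.18 and 0.19.

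Levels of different genes were compared as FPKM, which is scaled by transcript length. In control the order was Cdkn1a at 242 FPKM, Ccng1 at 83.9, Trp53 at 74.7, Mdm2 at 42.8, Phlda3 at 26.2, Mdm4 at 17.8, Ppm1d at 11.2, Zmat3 at 10.8, Sesn1 at 9.57 and Btg2 at 3.82 (means, n = 2). Ccng1 overlapped Trp53 between libraries, as did Ppm1d and Zmat3, and Zmat3 and Sesn1, so these neighbours cannot be ordered. The mean FPKM of Cdkn1a exceeded that of 97.8% of the genes tested, that of Trp53 91.2% and that of Btg2 18.5%. In PQ Cdkn1a reached 556 FPKM and Ccng1 214.6, above 99.2% and 97.5% of the genes tested, Zmat3 at 17.5 stood above Ppm1d at 11.5, and Sesn1 at 8.34 overlapped Btg2 at 7.73. In NAC Trp53, at 96.3 FPKM, ranked above Ccng1, at 61.1, and below Cdkn1a, at 127, with no overlap between libraries.

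**Figure D4:**
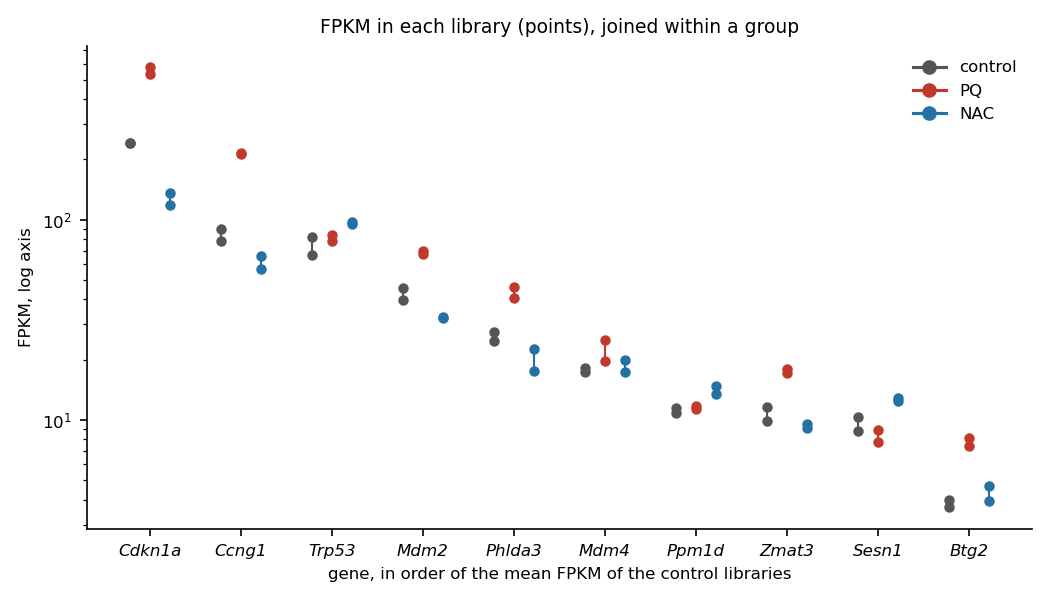
FPKM of the 10 genes in each library on a log axis, in the order of their mean in control; points are libraries and lines join the libraries of a group. Cdkn1a is the most abundant in all 3 groups, at 242 FPKM in control, 556 in PQ and 127 in NAC, and Btg2 the least abundant in control.

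The ratio of an inhibitor or target to p53 RNA within a library does not depend on the scaling between libraries. Mdm2 FPKM was 0.683 and 0.484 of Trp53 FPKM in control, 0.838 and 0.859 in PQ, and 0.343 and 0.331 in NAC. The groups did not overlap, and the control libraries differed from each other more than those of the other groups. For Cdkn1a the ratio to Trp53 was 3.62 and 2.93 in control, 6.88 and 6.82 in PQ, and 1.23 and 1.40 in NAC. Mdm2 exceeded Mdm4 in every library, with an FPKM ratio of 2.52 and 2.29 in control, 3.56 and 2.69 in PQ, and 1.64 and 1.84 in NAC. All of these ratios were highest in PQ and lowest in NAC, as a description with no test.

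The paralogs of the 10 genes, most of which are not known as p53 targets, served as a comparison. Of 24 paralogs 19 were tested. In PQ against control 4 were higher and 5 lower, with a median log2 fold change of -0.009. These are 21.1% and 26.3% of the 19, beside 9.76% and 9.45% of all genes. One of the 5, Btg3, had 55.8 expected counts in control 1, 51.1 in NAC 2 and 0 in the other 4 libraries, so no fold is given for it, and its reads may be shared with a near-identical copy. Without Btg3 the counts were 4 higher and 4 lower of 18, with a median of -0.008. Of the 19, 5.26% were higher and 10.5% lower in NAC against control, beside 9.01% and 9.64% of all genes. In PQ against NAC the shares were 21.1% and 15.8%, beside 16.0% and 15.7% of all genes. Against control NAC had 1 higher (2 without control 1, 0 without control 2 or NAC 2) and 2 lower. In PQ against NAC 4 were higher and 3 lower, Btg3 among the last (1 lower without PQ 1 or PQ 2). The lower paralogs in PQ against control are unsteady, since DESeq2 and limma each called 1 lower, as did edgeR without control 1, while the count was 0 without PQ 1 and 2 without PQ 2.

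Beside Cdkn1a, its paralog Cdkn1b (p27) was at -0.22 in PQ against control on the log2 scale (edgeR, adjusted p = 0.17, and -0.33 with 0.038 without control 2), so that the FPKM ratio of Cdkn1a to Cdkn1b was 2.72 and 3.17 in control, 8.54 and 6.93 in PQ, and 1.44 and 1.65 in NAC. Beside Ccng1, its closest paralog Ccng2 was lower in both treatments, by -0.57 in PQ (edgeR, adjusted p = 0.0033, but -0.36 with 0.12 without PQ 1) and -0.81 in NAC (edgeR, adjusted p = 1.3e-04), and Ccni was near 0 in PQ at -0.00. The cyclin G genes thus moved in opposite directions in PQ, and the FPKM ratio of Ccng1 to Ccng2 was 2.22 and 1.81 in control, 8.79 and 6.53 in PQ, and 2.89 and 2.13 in NAC. Beside Btg2, Btg1 was higher in PQ by 0.54 (edgeR, adjusted p = 4.8e-04) and Tob1 by 0.63 (edgeR, adjusted p = 4.1e-04), while Tob2 was at 0.10. Beside Phlda3, Phlda1 was higher in PQ by 0.47 (edgeR, adjusted p = 0.0042).

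Sesn2 and Sesn3 are the paralogs of Sesn1. Sesn2 was measured at 55.0 and 38.0 CPM in control, 34.7 and 31.0 in PQ, and 16.4 and 19.9 in NAC, with control the highest and NAC the lowest. Its log2 fold change was -0.50 in PQ (edgeR, adjusted p = 0.028) and -1.35 in NAC (edgeR, adjusted p = 7.9e-06), each against control, and 0.86 in PQ against NAC, the reverse of Sesn1 at -0.56. The fall of Sesn2 in PQ was lost without control 1 (-0.21, adjusted p = 0.41), without PQ 1 (-0.58, 0.079) and without PQ 2 (-0.42, 0.16), and with DESeq2 (0.056) and limma (0.12), while that in NAC was kept in 13 of 13 alternative settings. Sesn3 was at -0.01 in PQ and did not pass. Beside Ppm1d, Ppm1e was lower in PQ by -0.38 (edgeR, adjusted p = 0.031) and higher in NAC by 0.40 (edgeR, adjusted p = 0.017), and Ppm1f was higher in PQ by 0.35 (edgeR, adjusted p = 0.05 after rounding). In PQ the call of Ppm1e was kept in 7 of 13 alternative settings and that of Ppm1f in 6 of 13. The losses of Ppm1e include those without control 1 (-0.34) and PQ 1 (-0.28). Those of Ppm1f include the fits without control 1 (0.27), PQ 1 (0.34) and PQ 2 (0.36). The call of Ppm1e in NAC was kept in 9 of 13, with losses that include those without control 2 (0.36), NAC 1 (0.39) and NAC 2 (0.42). The other PPM1 genes tested did not pass in PQ, with Ppm1a at -0.15, Ppm1b at -0.01, Ppm1g at -0.15 and Ppm1k at -0.31. Beside Zmat3, Zmat1 was at -0.68 (edgeR, adjusted p = 0.049), Zmat2 at 0.25 and Zmat5 at 0.27, of which Zmat1 passed the test. Its call was kept in 6 of 13 alternative settings. The losses include those without control 1 (-0.26), PQ 1 (-0.53), PQ 2 (-0.84) and NAC 2 (-0.68). Zmat2 was called in 1 of 13, without control 1 (0.34). The p53 paralogs Trp63 and Trp73 were nearly absent, with at most 3 and 2 expected counts in any library, and were not tested.

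Genes that act on p53 rather than under it were listed as regulators. Of 23 listed regulators 21 were tested, and in PQ against control 0 were higher and 3 were lower, with a median log2 fold change of -0.14. The 3 were kinases of the DNA damage response: Chek1 by -0.76 (edgeR, adjusted p = 9.1e-04), Prkdc by -0.55 (edgeR, adjusted p = 0.0029) and Atr by -0.46 (edgeR, adjusted p = 0.0056), each lower in 2 of 2 libraries. Prkdc was lost without PQ 2 (-0.45, adjusted p = 0.052) and with limma (-0.40 with 0.076 on log2(FPKM + 1), -0.51 with 0.071 on log2(FPKM + 0.1)), and Atr without PQ 1 (-0.41, 0.085). At an unadjusted p under 0.05 edgeR counted 2 regulators higher, and DESeq2 and limma counted 0 at the adjusted threshold, and edgeR counted 2 higher without control 1 and 1 without control 2. The 3 called are 14.3% of the regulators tested, beside 19.2% of all genes called in either direction and 9.45% lower. In NAC against control 9.52% of the regulators were higher, beside 9.01% of all genes. In PQ against NAC 4.76% were higher and 33.3% lower, beside 16.0% and 15.7% of all genes. In NAC, compared with control, 2 regulators were higher (0 without NAC 1, 1 without either control or PQ library, 0 with DESeq2 and 1 with limma) and 0 lower (0 lower also at an unadjusted p under 0.05, with DESeq2 and with limma). In PQ, compared with NAC, 1 was higher (0 without PQ 1, PQ 2 or NAC 2, and 2 without either control library) and 7 were lower (3 without PQ 2, and 4 without PQ 1, NAC 1 or NAC 2).

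Other targets of p53 with roles outside apoptosis were listed as well. Of 30 listed, 27 were tested. In NAC against control 48.1% were lower, beside 9.64% of all genes. In PQ against NAC 63.0% were higher and 7.41% lower, beside 16.0% and 15.7%. In PQ against control 15 were higher (12 with DESeq2 and 15 with limma) and 3 lower (2 with each of these tools). These are 55.6% and 11.1%, beside 9.76% and 9.45% of all genes, and the median log2 fold change was 0.39. The highest were Dcxr, a carbonyl reductase, at 1.59 (edgeR, adjusted p = 4.3e-06), Ptp4a3, a phosphatase, at 0.89 (edgeR, adjusted p = 5.5e-05), and Ak1, an adenylate kinase, at 0.84 (edgeR, adjusted p = 1.3e-05). The 3 lower were Pcna, the replication clamp, at -0.56 (edgeR, adjusted p = 3.9e-04), Ddit4, an mTORC1 inhibitor, at -0.55 (edgeR, adjusted p = 0.004), and Sesn2 at -0.50. In NAC, compared with control, 13 of the 27 were lower and 0 higher (1 higher without control 1), with a median of -0.32, and 3 were higher at an unadjusted p under 0.05 and 0 with DESeq2 or limma. In PQ against NAC 17 were higher and 2 lower (1 lower without PQ 1), with a median of 0.59. Ddit4 was lost without PQ 1 (-0.42, adjusted p = 0.1), as was Sesn2 (-0.58, 0.079), which was also lost without PQ 2 and without control 1. Without PQ 1, 9 were higher and 1 lower in PQ against control, and without NAC 1 or NAC 2, 7 were lower in NAC against control.

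Of 15 apoptosis targets linked to p53, 14 were tested, and 10 were higher and 0 lower in PQ than in control. The share higher was 71.4%, beside 9.76% of all genes, and 71.4% also in PQ against NAC, beside 16.0%. In PQ against control the median log2 fold change was 0.69, led by Fas at 1.66 and by Eda2r and Trp53inp1 at 1.31 each. The lowest of the 10 were Apaf1 at 0.31, Ei24 at 0.63 and Tnfrsf10b at 0.64, the count of lower genes was 0 also at an unadjusted p under 0.05, with DESeq2 and with limma, and 6 were higher without PQ 1. Of the genes named, Tnfrsf10b was lost without PQ 1 (0.56, adjusted p = 0.055) and Apaf1 in 9 of 13 alternative settings, among them without control 1 (0.24, 0.19), PQ 1 (0.29, 0.21) and PQ 2 (0.32, 0.12). In NAC, compared with control, 14.3% of the 14 were higher and 7.14% lower, beside 9.01% and 9.64% of all genes. The 2 higher were Fas at 0.96 (edgeR, adjusted p = 3.7e-04) and Eda2r at 0.32 (0.03). Only Fas was left without any single control or NAC library, since Eda2r was lost without control 1 (0.35, adjusted p = 0.054), control 2 (0.29, 0.1), NAC 1 (0.35, 0.089) and NAC 2 (0.29, 0.15), as it was with DESeq2 (0.32, 0.057) and with the protocol as a factor (0.35, 0.063). A further 1 was lower in NAC (0 without any single library), and in PQ against NAC 10 were higher and 0 lower, with 0 lower also at an unadjusted p under 0.05, with DESeq2 and with limma.

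Genes of DNA replication and mitosis that are known to be lowered through p21 and the DREAM complex stood opposite to Cdkn1a in PQ. Of the 35 listed and tested, 31 were lower and 0 higher in PQ than in control, with a median log2 fold change of -0.64. The count of higher genes was 0 also at an unadjusted p under 0.05, with DESeq2 and with limma. The share lower was 88.6%, beside 9.45% of all genes, and 85.7% in PQ against NAC, beside 15.7%. In NAC against control 5.71% were higher and 2.86% lower, beside 9.01% and 9.64% of all genes. Mki67, the proliferation antigen, was measured at 1057 and 1082 CPM in control, 452 and 522 in PQ, and 1368 and 1192 in NAC, so PQ was the lowest and NAC the highest without overlap. Its log2 fold change was -1.13 in PQ against control (edgeR, adjusted p = 5.7e-07), followed by Mybl2 at -1.04 and Aurkb at -0.96, and the smallest falls past the threshold were Aurka and Ccne2 at -0.38 and Ccnb1 at -0.43. These 3 were lost without PQ 1 (-0.26, -0.33 and -0.35). Ccne2 was kept in 7 of 13 alternative settings, and its other losses include those without control 2 (-0.24) and PQ 2 (-0.44). In NAC against control, where Cdkn1a was lower, 2 of the 35 were higher and 1 was lower, with a median of 0.11; without control 2 the higher count was 7, and without control 1 or without NAC 1 it was 0. In PQ against NAC 30 were lower and 0 higher, with a median of -0.77, and 1 was higher at an unadjusted p under 0.05 and 0 with DESeq2 or limma. Whether p21 or p53 takes part in these differences was not tested.

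**Figure D5:**
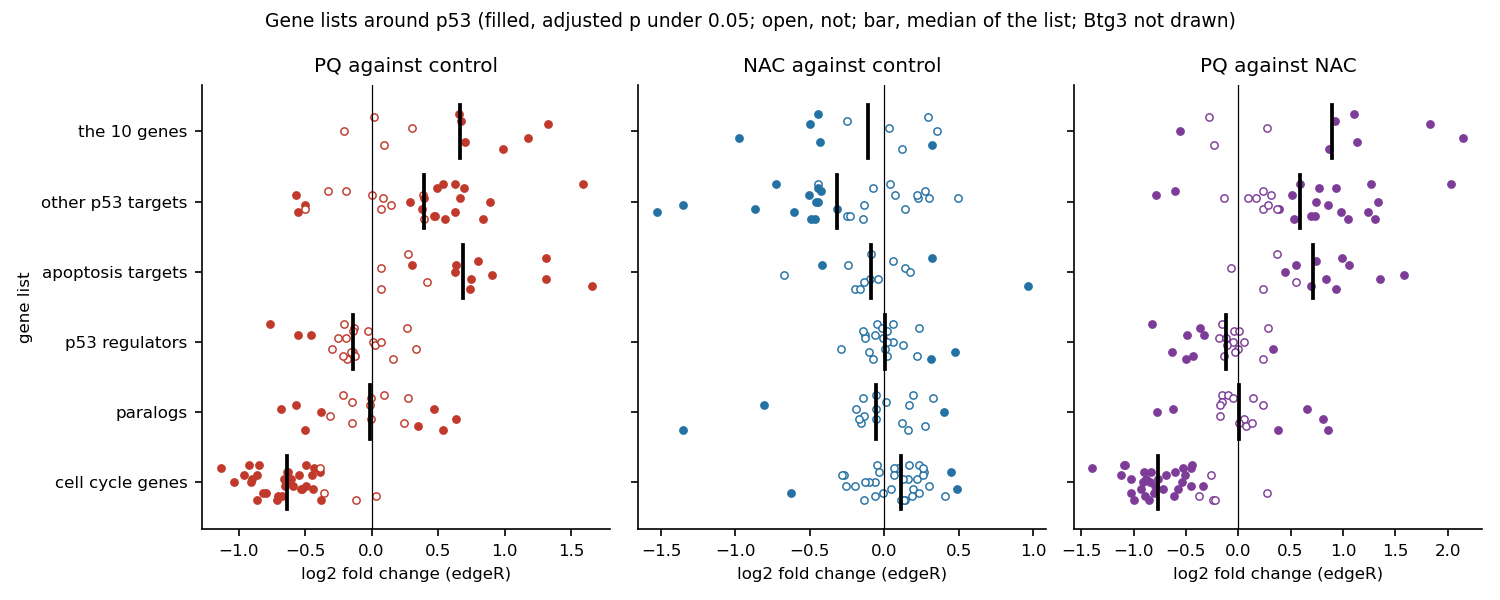
Log2 fold changes of the genes tested in each list, in PQ against control, NAC against control and PQ against NAC, with filled points for genes past the threshold of 0.05 for the adjusted p and a bar at the median of the list; Btg3 is not drawn. In PQ against control the medians are 0.67 for the 10 genes, 0.39 and 0.69 for the other and the apoptosis targets, and -0.64 for the cell cycle genes.

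The genes whose pattern over the 6 libraries was most like that of Cdkn1a were found by the root mean square difference of log2 CPM, each gene centred on its own mean. They were Ggta1 at 0.0975, Gda at 0.11, Tcam1 at 0.121, Pqlc3 at 0.14 and Rgs8 at 0.149, none of which is in the lists above. Ggta1, a galactosyltransferase, was measured at 13.1 and 13.2 CPM in control, 26.7 and 27.7 in PQ, and 5.76 and 5.85 in NAC, which is the order of groups seen for Cdkn1a at a lower level. Of the 10 genes, Ccng1 was the nearest to Cdkn1a, at 0.24, then Phlda3 at 0.42 and Mdm2 at 0.437, and Sesn1 was the farthest, at 1.11. The genes closest to the mean pattern of the 8 genes other than Trp53 and Mdm4 were Itpripl2 at 0.0397, Mir22hg at 0.0415, Cdc34 at 0.0467, Csnk1g1 at 0.0481 and Dcaf4 at 0.0558. Of the 10 genes Zmat3 came nearest to that mean, at 0.0638, and Mdm2 followed at 0.12. Both are among the 8 genes averaged, so part of their closeness is built in. Genes near a pattern over 6 libraries in 3 groups are listed as a description only.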

How the data were processed

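RNA of 6 NSPC libraries was analysed from the tables the authors deposited, 1 per library. Each holds the expected count that the authors computed for a gene, which is not whole where a read fits more than 1 gene, and their FPKM, corrected by the authors for length and depth. All 6 tables have columns of the type RSEM writes. The submitters' processing notes name mm9, TopHat2 2.0.11 and Cufflinks 2.1.1 for control 1 and PQ 1, as do the study's methods in part, and mm10, HISAT2 2.0.4, Bowtie2 2.2.5 and RSEM for the other 4 libraries. Whether strand was used in counting is not given in the sources used here; on mm9 (GENCODE vM1) no exon of the 10 genes overlaps an exon of another annotated gene. A gene missing from a table was given 0 reads there. Fractional counts of Mdm2 and Zmat3 leave these genes less certain.

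Expected counts were rounded to whole numbers, and genes whose FPKM averaged 1 or more were tested with edgeR 4.0.16 in R 4.3.3 (TMM, glmQLFit and glmQLFTest, all 6 libraries, a mean per group, no covariate), with Benjamini-Hochberg adjustment over 11717 genes and a threshold of 0.05. The SE is the absolute log2 fold change divided by the square root of F. CPM used the TMM library sizes, and log2 CPM a prior count of 2. Symbols were found for 99.7% of the gene identifiers. Depth ranged from 9680436 to 10698241 expected counts, which gives counting errors of 0.936 to 9.37% for the 10 genes, and a gene that never exceeded 3 counts was given no fold. The libraries of a group differed by more than counting noise, with a chi-square per degree of freedom of 7.26 in control, 4.32 in PQ and 4.96 in NAC. The scripts were tested on simulated counts.

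The genes and gene lists were chosen with earlier results of these data known. From each list the text names the 3 highest and the 3 lowest log2 fold changes of PQ over control past the threshold (1 marker gene is left out), every tested paralog, Cdkn2a and Cdkn2b, and the 5 genes most like Cdkn1a or the mean of 8 of the genes. Map2, Dlx2, Tubb3 and the NAC values of paralogs, Vim, P2ry12, Fas and Eda2r were picked after they were seen. The p53 consensus scan was added after the data were seen. Alternatives were RLE size factors, no filter, DESeq2 1.42.0, the labelled protocol as a factor, only the 4 libraries compared, each library left out, and limma 3.58.1 on log2(FPKM + 1) and log2(FPKM + 0.1). The study's other experiments were not analysed here.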

Additional observations from a re-analysis of the deposited data

How the results depend on the processing

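Over the 13 alternatives, the directions and calls of Mdm2, Cdkn1a, Ccng1, Btg2, Zmat3 and Phlda3 in PQ against control and PQ against NAC, and those of Mdm2, Cdkn1a and Ccng1 in NAC against control, did not change. Of the log2 fold changes of the 10 genes, 360 kept their direction and side of the threshold, 11 newly passed it, 14 no longer did and 5 reversed. The reversed values of these genes, none past the threshold, were those of Trp53 in PQ against control without control 1 (-0.04), Ppm1d in the same comparison without control 1 (-0.02), and Mdm4 in NAC against control with the protocol as a factor (-0.05), without control 2 (-0.01) and without NAC 1 (-0.08); the cause was not tested. Leaving out 1 library gave from -0.04 to 0.24 for this value of Trp53, -0.02 to 0.05 for Ppm1d and -0.08 to 0.13 for Mdm4. Of the log2 fold changes of the other genes named, 618 did not change, 2 newly passed, 70 no longer did and 12 reversed. The last are of 4 paralogs near 0 in PQ against control: with limma Ccni was at 0.02, Ppm1b at 0.03 and Sesn3 at 0.03 on both FPKM scales, and leaving out 1 library gave from -0.12 to 0.11 for Ccni, -0.04 to 0.02 for Ppm1b, -0.10 to 0.27 for Tob2 and -0.17 to 0.18 for Sesn3. With the protocol as a factor and with only the 4 libraries compared, 0 of the 10 genes were higher in NAC than in control, and with only the 4 libraries compared 2 were lower in PQ than in NAC, both fits with fewer residual degrees of freedom. Leaving out 1 library at a time gave from 0 to 2 genes higher in NAC against control, from 0 to 2 lower in PQ against NAC, and from 866 to 2206 genes past the threshold in PQ against control, 1286 to 2126 in NAC against control and 2343 to 4207 in PQ against NAC. The lone library left in a group is then assumed to vary like the others. Of the counts over genes and lists, 410 stayed within 1.5 times and 97 did not. Under no setting was the median of all genes more than 0.045 from 0. The labels carry no shared replicate numbers, and the numbers used here only name libraries; the fit with the protocol as a factor compares control 1 with PQ 1, and control 2 with PQ 2 and NAC. With 2 libraries a group and counts from 114 up for the 10 genes, a gene that did not pass may still differ by an amount within its interval.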
